A study of Mus musculus with 47 samples.

Results

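The BMP and TGF-beta response genes are 9 genes of the 14221 in the deposited table, taken by their symbols, with no threshold on their values: Id1, Id2, Id3, Id4, Smad6, Smad7, Tgfb1, Tgfb2 and Tgfbr2. All 9 were detected in each of the 47 libraries. They were followed in the hypothalamus of male Lep ob/ob mice, labelled 11 weeks old, after a single intracerebroventricular (icv) injection of FGF1 or vehicle. Lep ob/ob mice lack functional leptin, overeat and become obese and diabetic, and FGF1, fibroblast growth factor 1, is a secreted growth factor studied for its glucose-lowering action in the brain. All groups share the Lep ob/ob genotype, no lean mice were included, and each library came from 1 mouse.

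FGF1 was given as 3 ug, and hypothalami were taken from separate mice on Day 1 (10 FGF1 and 4 vehicle), Day 5 (9 FGF1, 7 vehicle labelled non-diabetic and 7 vehicle labelled diabetic) and Day 42 (5 FGF1 and 5 vehicle). The vehicle mice of Days 1 and 42 are labelled non-diabetic. The labels of the FGF1 mice give no diabetic state, and the study describes its Lep ob/ob mice as diabetic. Days 1 and 42 have no vehicle group labelled diabetic. An effect of FGF1 on those days therefore cannot be told apart from a difference in diabetic state. The protocol in the labels counts 7 vehicle mice on Day 5 without giving their diabetic state, so each labelled group was compared with the FGF1 mice. The study describes its vehicle mice as pair-fed to the FGF1 mice. The questions were which of the 9 genes FGF1 changed on each day, whether the choice of vehicle group mattered on Day 5, and whether the effects differed between days.

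Bone morphogenetic proteins (BMPs) and transforming growth factor beta (TGF-beta) are secreted ligands that join type I and type II receptor kinases, which phosphorylate Smad proteins that then enter the nucleus with Smad4. BMP receptors act mainly through Smad1, Smad5 and Smad9, and TGF-beta and activin receptors mainly through Smad2 and Smad3. The ID factors are classic early targets of the BMP branch, and Smad6 and Smad7 are induced by the pathway and inhibit it. In brain, the pathway is known for astrocyte and oligodendrocyte differentiation, for the vessel wall and for the reaction of glia to injury.

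Promoter sequences are shown for the 4 members that passed the test in 1 or more comparisons of FGF1 with vehicle, so that their starts can be compared with the motifs known for Smad proteins. They were read from RefSeq on GRCm38.p6 from 250 bases before to 50 bases after the gene start, 5′ to 3′ on the strand of the gene. RefSeq windows were found for 7 of the 9 genes. For Id2 and Id3 the RefSeq start lies inside the outermost GENCODE bounds of the gene given later. Capitals mark the GC-rich element GGCGCC of BMP-responsive promoters, the short Smad box CAGAC on either strand (read on the gene's strand as GTCTG where it lies on the other) and the palindromic Smad element GTCTAGAC. None of these 3 motifs contains another.
Id2 promoter, chr12:25096043-25096342, minus strand: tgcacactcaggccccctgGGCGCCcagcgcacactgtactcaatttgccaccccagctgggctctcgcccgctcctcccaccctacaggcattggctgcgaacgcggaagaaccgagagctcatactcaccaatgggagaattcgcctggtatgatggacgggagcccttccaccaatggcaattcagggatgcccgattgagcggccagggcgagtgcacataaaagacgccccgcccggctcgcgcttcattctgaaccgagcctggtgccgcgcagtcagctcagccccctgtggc
Id3 promoter, chr4:136143572-136143871, plus strand: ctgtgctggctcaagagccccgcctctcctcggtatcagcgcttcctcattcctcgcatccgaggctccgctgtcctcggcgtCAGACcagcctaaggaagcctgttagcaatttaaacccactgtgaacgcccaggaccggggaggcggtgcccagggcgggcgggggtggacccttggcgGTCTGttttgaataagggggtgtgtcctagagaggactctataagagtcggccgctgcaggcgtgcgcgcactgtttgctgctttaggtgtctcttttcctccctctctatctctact
Smad6 promoter, chr9:64022010-64022309, minus strand: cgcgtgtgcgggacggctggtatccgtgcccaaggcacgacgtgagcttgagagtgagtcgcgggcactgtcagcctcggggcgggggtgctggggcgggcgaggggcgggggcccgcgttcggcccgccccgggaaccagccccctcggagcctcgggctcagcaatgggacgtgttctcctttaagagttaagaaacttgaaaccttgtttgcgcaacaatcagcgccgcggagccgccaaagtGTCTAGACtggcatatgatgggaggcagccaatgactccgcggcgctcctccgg
Tgfb1 promoter, chr7:25686752-25687051, plus strand: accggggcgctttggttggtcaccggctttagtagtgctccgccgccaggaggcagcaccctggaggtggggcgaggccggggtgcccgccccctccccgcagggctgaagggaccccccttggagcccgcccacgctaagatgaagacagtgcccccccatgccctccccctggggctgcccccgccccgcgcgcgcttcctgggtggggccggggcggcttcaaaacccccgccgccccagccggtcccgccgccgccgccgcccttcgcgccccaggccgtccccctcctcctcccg
With positions counted from the start to the first base of a match, GGCGCC stood at -231 in the Id2 window, and it occurs in 11.9% of the 32851 windows of this length. The Smad box CAGAC stood at -167 and -68 in the Id3 window and is present in 49.6% of windows. The element GTCTAGAC stood at -4 in the Smad6 window and is present in 0.213% of windows. The E-box CANNTG, bound by bHLH factors, was found at -196 in the Id2 window and at 8 in the Smad6 window and is present in 72.3% of windows. None of these motifs, nor the cAMP-response element TGACGTCA (1.79% of windows), was found in the Tgfb1 window. Among the windows not printed, Id4 held GGCGCC at -148, Tgfb2 held CAGAC at -221 and -204, and Tgfbr2 held CAGAC at -160. These matches are letters in a window and were not compared with any binding data.

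All 9 hypothalamic marker genes listed, such as Agrp, Pomc and Hcrt, had counts in all 47 libraries. In no library were more than 539 of the 14221 genes at 0, so this does little to test the tissue label. Total counts per library ran from 1243280 to 47082403 on Day 1, from 7579695 to 30009258 on Day 5 and from 19416026 to 43934003 on Day 42. FGF1 mouse 17 of Day 1 had the fewest, 1243280, with 539 genes at 0. All libraries of a day carry the same preparation code in the deposited sample sheet, and the days carry different ones. Day therefore cannot be told apart from preparation, and FGF1 was compared with vehicle only within a day. Levels are CPM, counts scaled to a common library total with trimmed-mean (TMM) factors, and a gene passed where its log2 fold change exceeded 0.5 in size and its adjusted p in the quasi-likelihood test of edgeR was below 0.05 (Benjamini-Hochberg over all 14221 genes).

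On Day 1, 3 of the 9 genes rose after FGF1 (Tgfb1, Id3 and Id2) and 0 fell, where 11.5% of all genes rose and 8.05% fell. On Day 5 against the non-diabetic vehicle mice only Id3 rose among the 9, where 1.31% of all genes rose. Against the diabetic vehicle mice of the same day Id3 and Smad6 rose, where 2.36% of all genes rose. On Day 42 none of the 9 passed, and the share over all genes was 0%. The median log2 fold change of the 9 was 0.44 on Day 1, 0.28 on Day 5 and 0.03 on Day 42, beside medians over all genes of 0.01, -0.01 and -0.01. In bulk tissue, fewer cells of a type and less RNA per cell cannot be told apart, and this holds for every value given here.

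**Figure D1:**
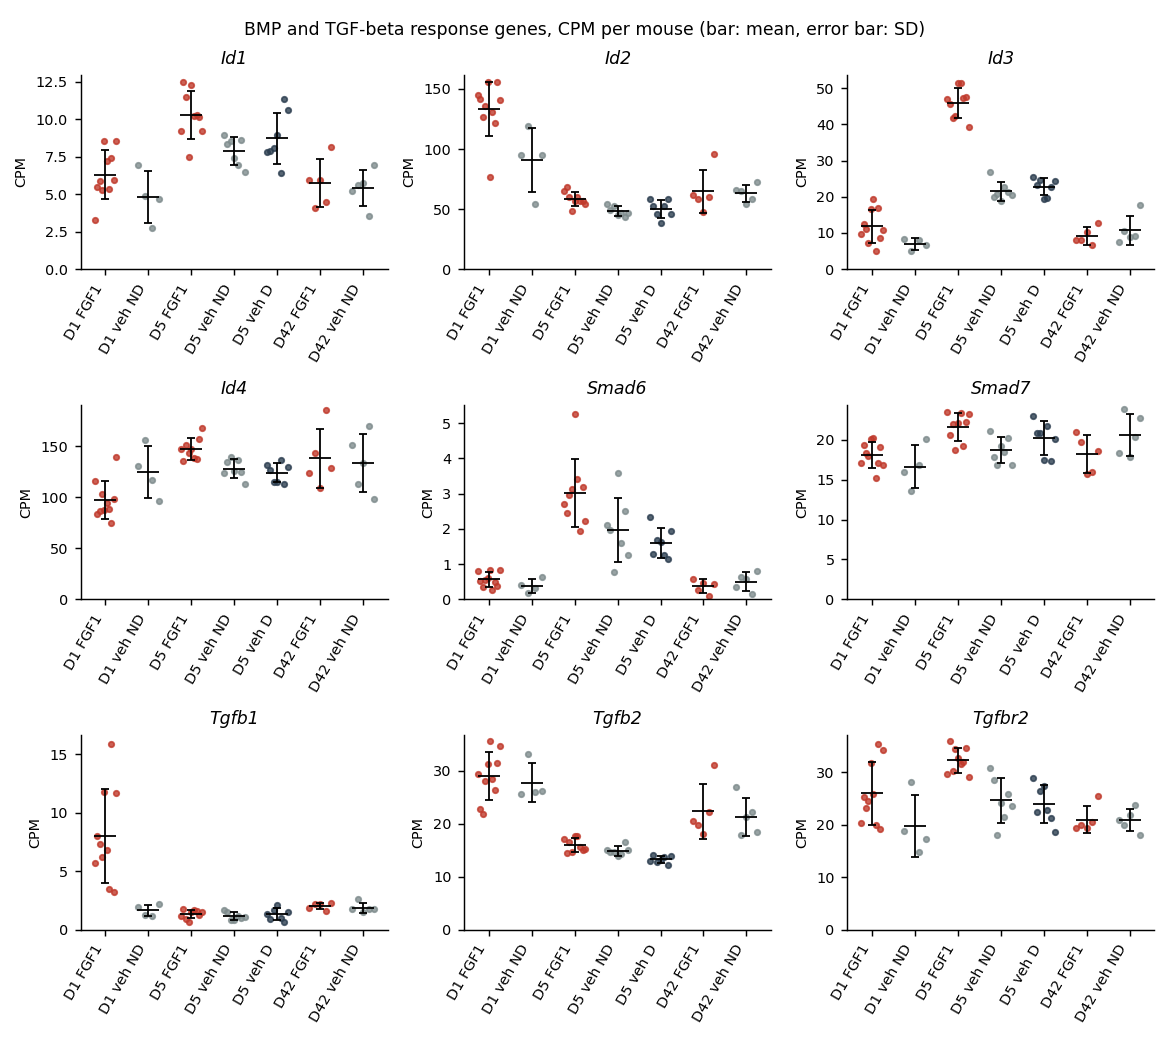
CPM of the 9 member genes in each mouse, by day and group (D1, D5 and D42 are Days 1, 5 and 42, veh is vehicle, ND non-diabetic and D diabetic). Points are mice, horizontal bars are means and error bars are SDs. Tgfb1 stands above vehicle in all 10 FGF1 mice of Day 1, and Id3 stands above vehicle in all 9 FGF1 mice of Day 5.

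The ID factors lack a DNA-binding domain and hold basic helix-loop-helix (bHLH) factors in inactive dimers, which keeps progenitors from differentiating. Id3 (chr4:136143497-136145755, plus strand, GRCm38) was the member whose level rose on both Days 1 and 5. In FGF1 mice of Day 5 the lowest, median and highest Id3 levels were 39.4, 46.9 and 51.5 CPM. In the non-diabetic vehicle mice they were 18.8, 20.8 and 26.8 CPM and in the diabetic vehicle mice 19.4, 23.3 and 25.4 CPM. All 9 FGF1 mice therefore lay above all 14 vehicle mice of the day. The log2 fold change was 1.09 ± 0.18 (SE) against the non-diabetic vehicle mice (2.13-fold, edgeR adjusted p = 4.56e-05) and 1.01 ± 0.18 against the diabetic ones (edgeR adjusted p = 8.61e-05). A two-sided exact permutation test on log2(CPM + 0.5) gave p = 0.000175 against either vehicle group, which is the smallest two-sided value that 9 against 7 mice allow.

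Groups that do not overlap were seen for 3.93% of all genes in the Day 5 comparison with non-diabetic vehicle mice and for 1 of the 9 members, Id3. Against diabetic vehicle mice they were seen for 6.08% of all genes and for 3 members, Id3, Tgfb2 and Tgfbr2. The Id3 calls of Day 5 held with each FGF1 mouse or each non-diabetic vehicle mouse left out in turn.

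On Day 1, Id3 levels ran from 5.15 through a median of 11.0 to 19.4 CPM in FGF1 mice. The 4 vehicle mice had 8.46, 4.94, 7.94 and 6.59 CPM. FGF1 mice 23 and 20, at 5.15 and 7.34 CPM, lay within the vehicle range and the other 8 lay above it. The log2 fold change was 0.77 ± 0.21 (edgeR adjusted p = 0.00287), while the exact permutation test gave p = 0.0539, above the threshold. On Day 42 the FGF1 mice had 7.98, 8.14, 10.2, 6.80 and 12.8 CPM and the vehicle mice 7.52, 10.7, 8.82, 9.10 and 17.7 CPM. These ranges overlapped, with a log2 fold change of -0.24 ± 0.22 (edgeR adjusted p = 1).

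Id2 (chr12:25093799-25097140, minus strand) was the most abundant member per length in vehicle mice of Day 1, at 37.3 ± 11.0 RPKM (SD, n = 4). RPKM here is CPM per kilobase of exon. FGF1 mice of Day 1 ran from 76.9 through 138 to 156 CPM, and the 4 vehicle mice had 95.3, 119, 54.6 and 95.1 CPM. Of the FGF1 mice, 9 lay above all vehicle mice and mouse 22, at 76.9 CPM, lay between them. Id2 rose by a log2 fold change of 0.55 ± 0.14 (edgeR adjusted p = 0.00189, exact permutation p = 0.036). Vehicle mouse 29 had the lowest Id2 level, and without it the log2 fold change was 0.37, under the fold threshold. With DESeq2 size factors it was 0.4983, also just under the threshold.

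On Day 5, Id2 had a median of 57.1 CPM in FGF1 mice and 47.1 CPM in non-diabetic vehicle mice. Its log2 fold change of 0.28 ± 0.13 did not pass (edgeR adjusted p = 0.253), with 8 of 9 FGF1 mice above all of those vehicle mice. Against the diabetic vehicle mice it was 0.21 ± 0.13 (edgeR adjusted p = 0.333), with 4 of 9 above all of them. On Day 42 it was 0.03 ± 0.15 (edgeR adjusted p = 1). The FGF1 mice of that day had 62.0, 58.7, 47.4, 59.8 and 95.6 CPM and the vehicle mice 65.9, 64.7, 54.0, 58.2 and 72.4 CPM, so that the highest and the lowest values were both from FGF1 mice.

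Id1 (chr2:152736251-152737410, plus strand) and Id4 (chr13:48261228-48266026, plus strand) passed on p but not on fold on Day 1, with differences of opposite sign. Id1 ran from 3.26 through 5.91 to 8.54 CPM in FGF1 mice and was 6.92, 4.88, 2.72 and 4.70 CPM in the vehicle mice. Its groups overlapped, with a log2 difference of 0.44 ± 0.18 (edgeR adjusted p = 0.0404, exact permutation p = 0.162). Its lowest FGF1 value, in the shallow library of mouse 17, rests on 4 reads. With mice left out in turn, the log2 difference ran from 0.25 without vehicle mouse 29 (edgeR adjusted p = 0.284) to 0.67 without vehicle mouse 27 (edgeR adjusted p = 0.00476). The pass on p was also lost with DESeq2 (adjusted p = 0.0614), its size factors, quality weights or Day 1 fitted alone, without vehicle mouse 28 or 30, and without FGF1 mouse 21, 22, 24 or 26.

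Id4 ran from 74.3 through 91.7 to 139.8 CPM in FGF1 mice of Day 1 and was 130.7, 155.6, 116.6 and 95.8 CPM in vehicle mice. Of the FGF1 mice, 6 lay below all vehicle mice. The log2 difference was -0.37 ± 0.12 (edgeR adjusted p = 0.0103, exact permutation p = 0.052). It was -0.25 without vehicle mouse 28 (edgeR adjusted p = 0.13), and with Day 1 fitted alone the edgeR adjusted p was 0.0528. Exons of Id4 overlap those of A330033J07Rik and Gm49291 on the opposite strand by 171 bases. On Day 5, Id4 had medians of 146.9 CPM in FGF1 mice and 125.5 CPM in non-diabetic vehicle mice, a log2 difference of 0.20 ± 0.11 (edgeR adjusted p = 0.333). Of the FGF1 mice, 6 of 9 lay above all non-diabetic vehicle mice in Id4. Against the diabetic vehicle mice the Id4 difference was 0.25 ± 0.105 (edgeR adjusted p = 0.135), with 8 of 9 above all of them. Id1 had a log2 difference of 0.38 ± 0.16 on that day (edgeR adjusted p = 0.200), with 8 of 9 FGF1 mice above all non-diabetic vehicle mice. Against the diabetic vehicle mice the Id1 difference was 0.24 ± 0.16 (edgeR adjusted p = 0.412), with 3 of 9 above all of them. With the fold threshold dropped, 6 of the 9 members passed on Day 1 (the 3 above with Id1, Id4 and Tgfbr2), where 45% of all genes did.

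The inhibitory Smads block the pathway from within the cell, Smad6 with a preference for the BMP branch and Smad7 in both branches. Smad6 (chr9:63953076-64022059, minus strand) was the member with the fewest reads, down to 1 read in mouse 17 of Day 1. On Day 5 it ran from 1.93 through 2.96 to 5.26 CPM in FGF1 mice. The non-diabetic vehicle mice ran from 0.787 through 1.98 to 3.60 CPM and the diabetic ones from 1.14 through 1.62 to 2.34 CPM. Of the FGF1 mice, 7 lay above all diabetic vehicle mice and 1 above all non-diabetic vehicle mice. Smad6 rose against the diabetic group, with a log2 fold change of 0.89 ± 0.28 (edgeR adjusted p = 0.0352, exact permutation p = 0.000874). Against the non-diabetic group its log2 difference of 0.61 ± 0.28 did not pass (edgeR adjusted p = 0.246).

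Those values rest on 8 to 99 reads per library. The call against the diabetic group was lost without FGF1 mouse 4, 5, 6 or 8, with log2 fold changes of 0.77 to 0.88 and edgeR adjusted p of up to 0.0824, and without the 2 deepest FGF1 libraries, with a log2 fold change of 0.94 (edgeR adjusted p = 0.0521). With both vehicle groups merged, Smad6 passed with a log2 fold change of 0.75 (edgeR adjusted p = 0.024). On Day 1 its log2 difference was 0.49 ± 0.36 (edgeR adjusted p = 0.269), from 0.26 without vehicle mouse 28 to 0.82 without vehicle mouse 30, and on Day 42 it was -0.41 ± 0.40 (edgeR adjusted p = 1), from -0.68 to -0.12 with mice left out, at levels under 1 CPM in every mouse of those days.

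Smad7, on chromosome 18 (75367529 to 75395935, plus strand), had group means from 16.6 to 21.6 CPM, the narrowest span of the 9 in relative terms. Its log2 differences were 0.13 ± 0.09 on Day 1 (edgeR adjusted p = 0.249), 0.22 ± 0.08 on Day 5 (edgeR adjusted p = 0.139) and -0.18 ± 0.10 on Day 42 (edgeR adjusted p = 0.981). The Day 5 value is against the non-diabetic vehicle mice, and 6 of 9 FGF1 mice lay above all of them. Against the diabetic vehicle mice it was 0.10 ± 0.08 (edgeR adjusted p = 0.531), with 3 of 9 above all of them.

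Tgfb1 and Tgfb2 are ligands secreted in latent form. Tgfb1 (chr7:25687002-25705077, plus strand), which in brain is made largely by microglia and macrophages, had the largest change of the 9. The FGF1 mice of Day 1 ran from 3.19 through 7.08 to 15.9 CPM, and the 4 vehicle mice had 1.95, 1.27, 1.16 and 2.16 CPM. All 10 FGF1 mice lay above all 4 vehicle mice, and the FGF1 mice differed among themselves far more than the vehicle mice did, with SDs of 4.01 and 0.494 CPM. Tgfb1 rose with a log2 fold change of 2.32 ± 0.29, which is 5.00-fold (edgeR adjusted p = 7.39e-09). The two-sided exact permutation test gave p = 0.002, the smallest value that 10 against 4 mice allow. Groups that do not overlap were seen for 14.4% of all genes on Day 1 and, among the 9, for Tgfb1.

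On Day 5, Tgfb1 was low in every group, with medians of 1.48 CPM in FGF1 mice, 1.05 CPM in non-diabetic and 1.32 CPM in diabetic vehicle mice, from 6 to 42 reads per library. The log2 differences were 0.22 ± 0.32 and 0.04 ± 0.31 against those vehicle groups (edgeR adjusted p = 0.840 and 0.970). On Day 42 the FGF1 mice had 1.81, 2.21, 2.18, 1.60 and 2.28 CPM and the vehicle mice 1.73, 2.60, 1.53, 1.73 and 1.78 CPM. The groups overlapped, with a log2 difference of 0.11 ± 0.29 (edgeR adjusted p = 1).

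Tgfb2 (chr1:186622792-186705989, minus strand), a ligand of astrocytes and neurons, had nearly the same level in both groups of Day 1, from 21.9 through 28.9 to 35.6 CPM in FGF1 mice and 25.6, 33.2, 25.9 and 26.1 CPM in vehicle mice, a log2 difference of 0.06 ± 0.11 (edgeR adjusted p = 0.656). Its 95% interval ran from -0.15 to 0.27. On Day 5 the FGF1 mice ran from 14.4 to 17.7 CPM, above all diabetic vehicle mice (12.2 to 14 CPM) and overlapping the non-diabetic ones (13.8 to 16.6 CPM). Neither difference passed, at log2 values of 0.26 ± 0.10 (edgeR adjusted p = 0.0957) and 0.10 ± 0.10 (edgeR adjusted p = 0.712). Exons of Tgfb2 overlap those of Gm29491 on the opposite strand by 80 bases.

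Tgfbr2 (chr9:116084293-116175360, minus strand) encodes the type II receptor that binds TGF-beta. On Day 1 it ran from 19.1 through 24.9 to 35.4 CPM in FGF1 mice and was 18.8, 28.2, 14.7 and 17.3 CPM in vehicle mice. Its log2 difference of 0.42 ± 0.14 passed on p and not on fold (edgeR adjusted p = 0.0131, exact permutation p = 0.0759). Vehicle mouse 28 had the highest level of its group, and without it the log2 fold change was 0.64 (edgeR adjusted p = 0.000466), past both thresholds. It also passed both with sample quality weights in limma (0.52, adjusted p = 0.00693). The pass on p was lost without vehicle mouse 29, at 0.30 (edgeR adjusted p = 0.103), and without vehicle mouse 30, at 0.36 (edgeR adjusted p = 0.0555), and with Day 1 fitted alone (edgeR adjusted p = 0.094).

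On Day 5, Tgfbr2 ran from 29.2 through 32.0 to 36.1 CPM in FGF1 mice, from 18.1 through 24.2 to 30.9 CPM in non-diabetic and from 18.7 through 22.8 to 28.97 CPM in diabetic vehicle mice. All 9 FGF1 mice lay above all diabetic vehicle mice and 6 of 9 above all non-diabetic ones. The log2 difference was 0.43 ± 0.12 against the diabetic group (edgeR adjusted p = 0.0176) and 0.39 ± 0.12 against the non-diabetic group (edgeR adjusted p = 0.0563), under the fold threshold in both. With the fold threshold dropped, 3 of the 9 passed against the diabetic group, where 9.21% of all genes did. On Day 42 the log2 difference of Tgfbr2 was -0.002 ± 0.15.

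**Figure D2:**
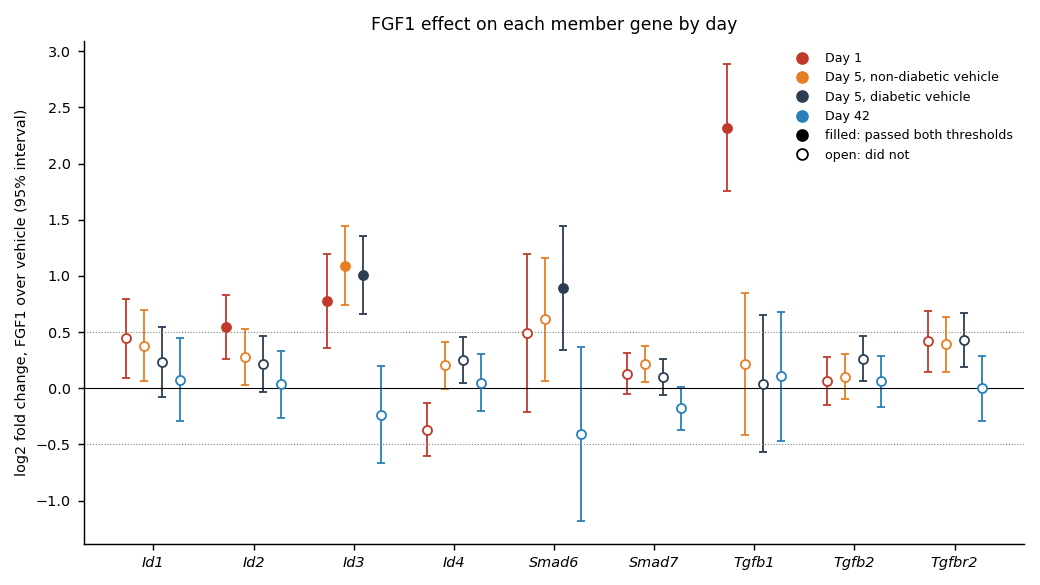
Log2 fold change of FGF1 over vehicle with its 95% interval from edgeR for the 9 member genes, on Day 1, on Day 5 against either vehicle group, and on Day 42. Filled points passed both thresholds and dotted lines mark the fold threshold. Tgfb1 reaches 2.32 on Day 1 and lies at 0.22 or less on Days 5 and 42, while Id3 lies at 0.77 on Day 1 and near 1 on Day 5.

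Diabetic vehicle mice of Day 5 were then set against the non-diabetic ones. None of the 9 passed in edgeR, 0 had an unadjusted p under 0.05 and 0 passed in DESeq2, and the share over all genes was 0%. Their log2 differences, diabetic over non-diabetic, ran from -0.28 ± 0.32 for Smad6 to 0.18 ± 0.35 for Tgfb1. For Tgfb2 the log2 difference was -0.16 ± 0.11, with 5 of 7 diabetic mice below all non-diabetic ones, and its exact permutation test, not adjusted for the number of genes, gave p = 0.00175. On Day 42, FGF1 against vehicle, 0 of the 9 had an unadjusted p under 0.05 in edgeR and 0 passed in DESeq2. On that day 0.267% of all genes and none of the 9 had groups that did not overlap.

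The effect of FGF1 was then compared between days, as the difference of its log2 fold changes, each against the vehicle mice labelled non-diabetic. These comparisons share the groups of a day with those above and are not independent of them. The Tgfb1 effect was smaller on Day 5 than on Day 1, by -2.10 ± 0.43 (edgeR adjusted p = 0.000193), and smaller on Day 42 than on Day 1, by -2.21 ± 0.40 (edgeR adjusted p = 4.23e-05). With quantile normalization and limma, the first of these was -1.20 and did not pass (adjusted p = 0.449). The Id3 effect was smaller on Day 42 than on Day 5, by -1.33 ± 0.28 (edgeR adjusted p = 0.0089), and than on Day 1, by -1.01 ± 0.31 (edgeR adjusted p = 0.0116). The last of these lost its call without vehicle mouse 16 of Day 42, the highest in Id3 of its group (-0.75, edgeR adjusted p = 0.0503), and with sample quality weights in limma (-0.73, adjusted p = 0.125).

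The Id4 effect differed between Days 1 and 5 by 0.57 ± 0.16 (edgeR adjusted p = 0.00544), though Id4 did not pass both thresholds on either day. Without vehicle mouse 28 of Day 1 the Id4 difference was 0.45, under the fold threshold. For Id3, the difference between Days 5 and 1 was 0.32 ± 0.27 (edgeR adjusted p = 0.418), with a 95% interval from -0.22 to 0.85. For Id2 the differences from Day 1 were -0.27 ± 0.19 on Day 5 (edgeR adjusted p = 0.307, from -0.42 without vehicle mouse 28 to -0.09 without vehicle mouse 29 of Day 1) and -0.51 ± 0.21 on Day 42 (edgeR adjusted p = 0.0642). The last of these passed under 6 of 30 alternatives, quantile normalization (-0.61, adjusted p = 0.0201) and quality weights (-0.61, adjusted p = 0.0323) in limma among them, and without vehicle mouse 28 or FGF1 mouse 22 of Day 1 or vehicle mouse 14 or FGF1 mouse 11 of Day 42 (-0.56 to -0.69). In all, 2 members passed for Day 5 against Day 1, where 15.8% of all genes did, 1 for Day 42 against Day 5, where 0.717% did, and 2 for Day 42 against Day 1, where 16.4% did.

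The order of the levels across groups follows the days as well as FGF1. Mean Id3 was 45.9 ± 4.16 CPM (SD, n = 9) in FGF1 mice of Day 5, and its range did not overlap that of the next group. The following groups, from 22.8 CPM in diabetic vehicle mice of Day 5 down to 6.98 CPM in vehicle mice of Day 1, each overlapped their neighbour. Mean Tgfb1 was 8.01 ± 4.01 CPM (SD, n = 10) in FGF1 mice of Day 1, clear of the next group, and the other 6 groups, from 2.01 to 1.15 CPM, each overlapped their neighbour. Per length, Id4 was the highest member in vehicle mice of Days 5 and 42 (33.2 and 34.6 RPKM). The lowest was Smad6 in vehicle mice of Days 1 and 42 (0.12 and 0.158 RPKM) and Tgfb1 in non-diabetic vehicle mice of Day 5 (0.227 RPKM).

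Other genes of the pathway were taken from 10 lists of ligands, receptors, antagonists, Smads and targets that hold 98 genes, of which 81 were in the table. On Day 1, 21 of the 81 rose (25.9%) and 7 fell (8.64%). The shares over all genes were 11.5% and 8.05%. The lists were chosen with earlier results of these data known, so the shares only describe them. On Day 5 against non-diabetic vehicle mice 3 rose (Bmp4, Tgfb3 and Tgif1; 3.70%) and none fell, where 1.31% of all genes rose and 0.232% fell. Against diabetic vehicle mice 3 also rose and none fell, where 2.36% of all genes rose and 0.499% fell. On Day 42 none of the 81 passed in edgeR or DESeq2, with 7 at an unadjusted p under 0.05.

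Among ligands on Day 1, Tgfb3, Inhba and Inhbb of the 4 TGF-beta and activin ligands measured rose beside Tgfb1. Inhba, which encodes the activin A subunit, was 9.66 ± 4.91 CPM in FGF1 mice and 3.12 ± 1.09 CPM in vehicle mice (SD), a log2 fold change of 1.63 ± 0.29 (edgeR adjusted p = 7.88e-06). Tgfb3 rose with a log2 fold change of 0.96 ± 0.14 on Day 1 and 0.57 ± 0.12 on Day 5 (edgeR adjusted p = 1.82e-07 and 0.00202). Of 9 BMP and GDF ligands on Day 1, Bmp2 and Bmp7 rose (0.78 and 1.36 on the log2 scale) and Bmp6 and Gdf10 fell (-1.18 and -0.59). Bmp4, a marker of committed oligodendrocyte precursors as well as a BMP ligand, did not pass on Day 1 (0.25 ± 0.25) and rose on Day 5 (1.85 ± 0.25, edgeR adjusted p = 7.36e-07).

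Bmp4 was 6.78 ± 1.58 CPM in FGF1 mice and 1.87 ± 0.69 CPM in non-diabetic vehicle mice of Day 5 (SD), without overlap. Its effect differed between Days 1 and 5 by 1.61 ± 0.35 (edgeR adjusted p = 0.000412).

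Of 8 measured genes that hold and release latent TGF-beta, Ltbp1, Lrrc32, Itgav and Thbs1 rose on Day 1 and the other 4 did not pass. Lrrc32, a membrane anchor of latent TGF-beta, rose from 2.96 ± 0.61 to 10.2 ± 6.72 CPM (1.83 ± 0.31 on the log2 scale, edgeR adjusted p = 3.71e-06). Itgav, the integrin alpha-v subunit, rose from 48.4 ± 11.1 to 116 ± 30.4 CPM (1.25 ± 0.15, edgeR adjusted p = 3.03e-09). None of the 4 other TGF-beta and activin receptor genes passed, and of 11 BMP receptors and co-receptors Eng rose (0.61) and Bmpr1b fell (-0.91). Without vehicle mouse 29, Eng was at 0.46, and with quantile normalization at 0.49, both under the fold threshold. Among 12 antagonists, Nog and Grem1 fell (both -0.62) and Fst rose (0.58), the last with its call lost under 12 of 20 alternatives: DESeq2 (adjusted p = 0.0887), its size factors in edgeR (adjusted p = 0.0708), quantile normalization in limma (adjusted p = 0.0652), Day 1 fitted alone, without vehicle mouse 27, 29 or 30 and without FGF1 mouse 19, 20, 21, 24 or 26.

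Of the 6 receptor-regulated and common Smads, Smad3 of the TGF-beta branch rose on Day 1 and Smad9 of the BMP branch fell. Smad3 was 109 ± 17.8 CPM in FGF1 mice and 37.9 ± 0.289 CPM in vehicle mice, a log2 fold change of 1.54 ± 0.14 (edgeR adjusted p = 5.51e-13), and every FGF1 mouse lay above every vehicle mouse. Smad9 was 17.3 ± 1.97 and 26.2 ± 2.40 CPM (-0.605 ± 0.09, edgeR adjusted p = 1.96e-07), with every FGF1 mouse below. Tgif1, a Smad co-repressor, rose on Day 1 (1.92 ± 0.16) and on Day 5 (1.02 ± 0.16), and Tgif2 rose on Day 1 (0.85 ± 0.18).

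Of 11 other known targets, 5 rose on Day 1, among them Tgfbi, Junb, Fn1 and Klf10. Tgfbi, a matrix protein named for its induction by TGF-beta, rose from 6.70 ± 0.61 to 36.2 ± 12.2 CPM (2.45 ± 0.20, edgeR adjusted p = 3.63e-14). None of these 5 passed on Day 5, where Tgfbi was 0.20 ± 0.18. Among 9 bHLH partners and targets of the ID factors, Tcf12 and Hes1 rose (0.58 and 0.59) and Hes5 fell (-1.03) on Day 1. The Hes5 value was -0.42 (edgeR adjusted p = 0.339) and the Hes1 value 0.44, under the fold threshold, without vehicle mouse 29. With quantile normalization in limma the Hes5 value was -0.70 (adjusted p = 0.0537) and the Hes1 value 0.46, and Hes5 also did not pass with quality weights (adjusted p = 0.0808) or with Day 1 alone in edgeR (adjusted p = 0.1005).

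**Figure D3:**
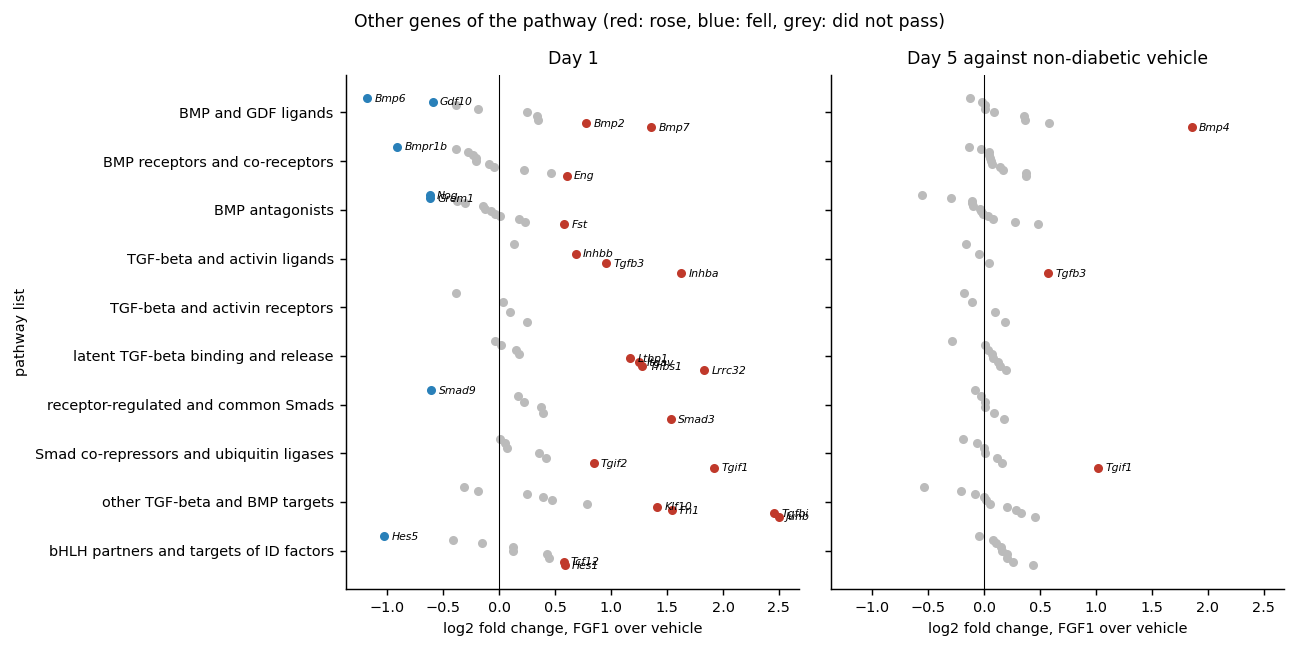
Log2 fold change of FGF1 over vehicle (edgeR) for the 81 other genes of the pathway by list, on Day 1 and on Day 5 against non-diabetic vehicle mice, with 1 of the 81 not drawn. Each point is 1 gene, red rose, blue fell and grey did not pass. On Day 1, Junb is the highest gene drawn at 2.50 and Bmp6 the lowest at -1.18, and on Day 5 Bmp4, Tgfb3 and Tgif1 rose.

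Markers of several cell types also moved on Day 1. Which cells carry the member genes was not measured in these bulk libraries. Of 4 markers of infiltrating and border myeloid cells, all 4 rose (Ccr2, Lyz2, Mrc1 and Cd163), and their summed level was 12.7 to 50.2 CPM in FGF1 mice and 13.1 to 25.9 CPM in vehicle mice. Of 6 microglial markers, 4 rose and P2ry12 fell, with sums of 205 to 271 and 190 to 224 CPM. Of 6 markers of meningeal fibroblasts, Dcn, Lum and Col3a1 rose and Slc6a13 fell, with sums of 59.5 to 431 and 94.7 to 174 CPM. No marker of these lists was at 0 except Ccr2 and Cd163 in the shallow library of mouse 17.

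In the 3 FGF1 mice whose myeloid sum lay within the vehicle range, Tgfb1 was 3.19 to 8.03 CPM, and in the 3 whose meningeal sum did so it was also 3.19 to 8.03 CPM. In the 3 whose microglial sum did so it was 3.45 to 11.8 CPM. None of the 10 FGF1 mice lay within the vehicle range of the astrocyte, ependymal, tanycyte, choroid plexus or neuronal sums. All 10 FGF1 mice lay above the highest vehicle level of 2.16 CPM, so any mice picked by marker sum had to do so. The 3 highest Tgfb1 levels, 15.9, 11.8 and 11.7 CPM in mice 24, 21 and 26, were in the 3 mice with the highest myeloid and the highest meningeal sums. The part of these cell types in the size of the Tgfb1 change was not tested.

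Of 6 mature oligodendrocyte markers 5 fell on Day 1, with sums of 2241 to 4064 CPM in FGF1 mice and 3568 to 5225 CPM in vehicle mice. Of 5 ependymal markers 3 fell, of 3 choroid plexus markers 2 and of 4 tanycyte markers 1. None of 6 neuronal markers passed, but their sums were lower in all FGF1 mice, at 2458 to 3244 CPM against 3314 to 4069 CPM. Sums of 9 hypothalamic markers, of which Pomc rose and Pmch fell, were 769 to 1164 against 1144 to 1505 CPM. Of 7 mural cell markers Kcnj8 and Tagln rose and Vtn fell, with sums of 142 to 236 against 179 to 256 CPM. Astrocyte markers stood lower in FGF1 mice of Day 1, with sums of 3235 to 3871 CPM against 4238 to 4832 CPM over 8 genes, of which Sox9 rose and Gja1 fell. Endothelial sums were 201 to 265 and 176 to 256 CPM, with Flt1 and Cdh5 of 8 markers higher. In the 8 FGF1 mice whose endothelial sum lay within the vehicle range, Id3 was 5.15 to 19.4 CPM, and 6 of them lay above all vehicle mice. No FGF1 mouse lay within the vehicle range of the astrocyte, ependymal, tanycyte, choroid plexus or neuronal sums. Id3 could not be read at a matched level of those, and the part of any of these cell types in its Day 1 change was not tested.

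On Day 5, markers of oligodendrocyte precursors stood higher in FGF1 mice, with sums of 245 to 319 against 149 to 169 CPM over 4 genes, of which Gpr17 and Bmp4 rose. Bmp4 stands in that list and in the ligand list. Sums of mature oligodendrocyte markers were 6018 to 6900 against 4430 to 5871 CPM, and sums of astrocyte markers 4920 to 5436 against 4464 to 4768 CPM. No FGF1 mouse fell within the non-diabetic vehicle range of these 3 lists, so Id3 could not be read against that group at a matched level of them, and their part in the Id3 change was not tested. Lum and Slc6a13 of the 6 meningeal markers rose (sums of 65.0 to 218 against 44.3 to 115 CPM) and Lyz2 of the 4 myeloid markers rose (26.4 to 64.5 against 15.1 to 32.0 CPM). In the 2 FGF1 mice within the meningeal range Id3 was 39.4 and 51.4 CPM, and in the 1 within the myeloid range it was 39.4 CPM. Endothelial sums were 256 to 326 against 230 to 278 CPM, with none of 8 markers called. In the 5 FGF1 mice within that range, Id3 was 41.9 to 47.3 CPM. All 9 FGF1 mice lay above the highest non-diabetic vehicle level of 26.8 CPM, so any mice picked by marker sum had to do so. The part of endothelial, meningeal and myeloid cells in the Id3 change was not tested.

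Against the diabetic vehicle mice, where Smad6 rose, 5 of 6 microglial markers also rose, with sums of 249 to 302 CPM in FGF1 mice and 184 to 210 CPM in vehicle mice. Lyz2 and Mrc1 of the 4 myeloid markers rose (26.4 to 64.5 against 15.6 to 28.5 CPM), and none of 8 endothelial markers did (256 to 326 against 248 to 286 CPM). The part of these cells in the Smad6 and Tgfbr2 values was not tested.

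**Figure D4:**
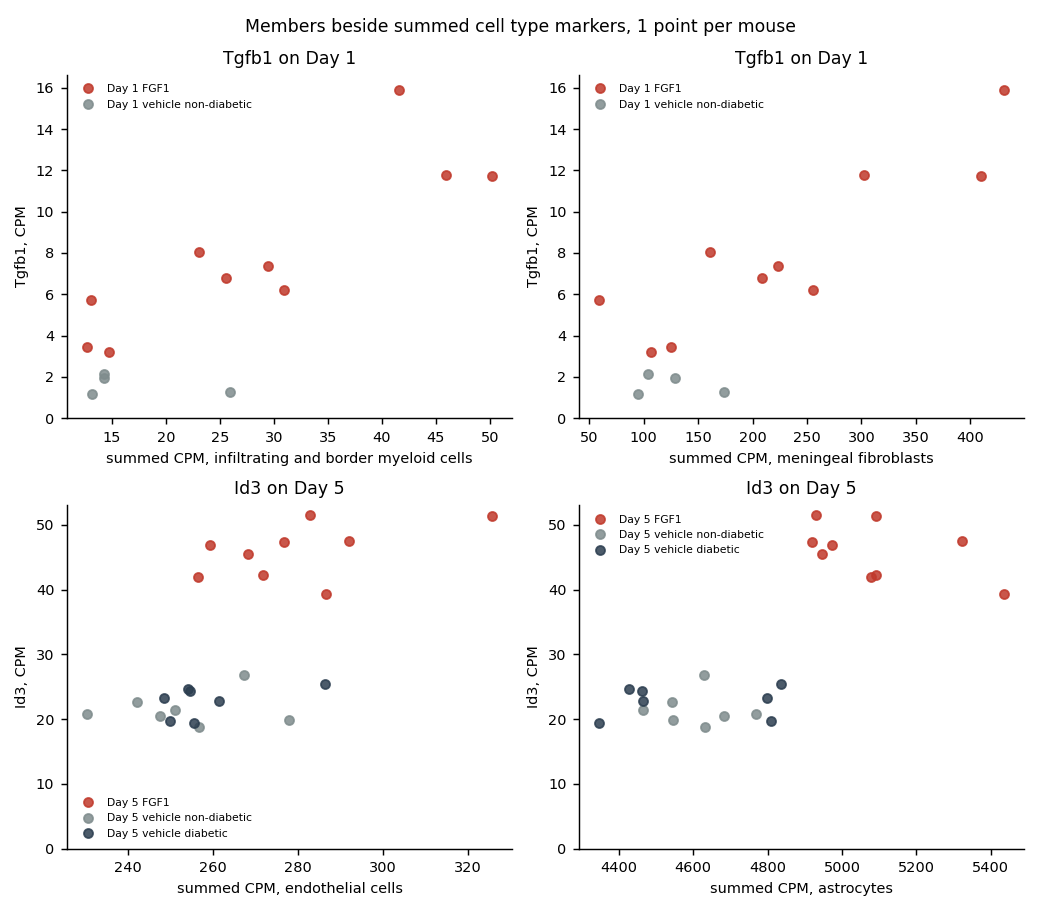
CPM of Tgfb1 on Day 1 beside the summed CPM of myeloid and meningeal markers, and CPM of Id3 on Day 5 beside the summed CPM of endothelial and astrocyte markers, 1 point per mouse. Tgfb1 of Day 1 is higher in all 10 FGF1 mice than in any vehicle mouse, and Id3 of Day 5 is higher in all 9. Any mice picked by marker sum therefore lie above vehicle as well. On Day 5, 5 FGF1 mice have endothelial sums inside the non-diabetic vehicle range, while the astrocyte sums of FGF1 and vehicle mice do not overlap.

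Across the 47 libraries, with each day centred on its own mean, the genes most like each member were found by Pearson's r of log2(CPM + 0.5). All points share tissue, and libraries of a day share preparation and, in part, FGF1. Tgfb1 was most like Plau (r = 0.866), Sdc1 (0.865) and Ptges (0.858). Id3 was most like Pbxip1 (0.858), Clu (0.846) and Necap2 (0.834), and Tgfbr2 was most like Lyz2 (0.824), Bgn (0.806) and Cdh5 (0.803). Id4 followed Ogt (0.876), Rhobtb3 (0.870) and Atrx (0.866), and Id2 followed Rac1 (0.765), Stt3b (0.741) and Tuba1a (0.739).

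The remaining 4 members had lower values. Tgfb2 was most like Lats2 (0.727), Tcf4 (0.715) and Zeb2 (0.685), Id1 like Ifitm2 (0.700), B4galt1 (0.698) and Cd82 (0.692), Smad6 like Gltp (0.643), Anxa4 (0.638) and Fxyd1 (0.637), and Smad7 like Elavl3 (0.637), Osbpl7 (0.629) and Fdxr (0.629). Among the members themselves, r was highest for Id3 with Smad6 (0.615) and for Tgfb1 with Tgfbr2 (0.591), and lowest for Id4 with Tgfb1 (-0.381). Id3 with Id1 had r = 0.565 and Id3 with Id2 had 0.318, while Id4 with the other ID factors ran from -0.204 to -0.023.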

How the data were processed

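mRNA was sequenced from 47 hypothalami, 1 library per mouse, grouped by the treatment, day and diabetic state in their labels. The authors aligned reads with STAR, to a reference that their methods name by a human build number, and deposited raw whole-number counts for 14221 genes without normalization. The counting program and its strand setting are not given in the sources used here. No gene in the deposited counts has fewer than 307 over all libraries, and genes outside the table were not analysed here.

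TMM factors were computed and 1 mean per group was fitted with edgeR 4.0.16 (R 4.3.3), whose own filter removed 0 genes. FGF1 was tested against vehicle within a day, and effects between days as differences of contrasts, by the quasi-likelihood F test with Benjamini-Hochberg adjustment over every gene. Two-sided exact permutation tests used the CPM of single genes as log2(CPM + 0.5), with the smaller tail doubled. Precision is set by the spread between mice and, for Smad6 and Tgfb1, by low counts. In simulated counts with 200 of 14218 genes changed by a log2 fold of 1.5, edgeR recovered 100% on Day 1, 99.5% on Day 5 against non-diabetic vehicle and 98% on Day 42. The false calls were 5, 4 and 3. All member changes between FGF1 and vehicle but that of Tgfb1 on Day 1 were smaller than 1.5. Recovery of such smaller changes was not simulated, so these shares do not show which of them could be detected.

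The members and all lists were chosen with earlier results of these data known. Named pathway genes are up to 4 per list with the largest change past both thresholds and a mean of at least 1 CPM. Gdf10 and Klf10 fall outside that rule and were named after their values were seen, to complete counts. The values of 1 gene that the rule names are not reported here. Alternatives were DESeq2 1.42.0, edgeR with DESeq2 size factors, limma 3.58.1 after quantile normalization or with quality weights per sample, no filter or at least 10 counts in every library, each day alone, both vehicle groups of Day 5 merged, no fold threshold, a pseudocount of 0.1, and mice left out. Leaving out FGF1 mice 18 to 26 of Day 1 and the FGF1 and non-diabetic vehicle mice of Day 5 in turn was chosen after seeing the data. Gene coordinates are from GENCODE for GRCm38 (14183 genes matched by symbol) and promoter windows from RefSeq (GRCm38.p6).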

Additional observations from a re-analysis of the deposited data

Results flagged for a closer look

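In tests of each member in each group, 63 in all, 5 mice lay apart from the rest of their group by Dixon's ratio at the 95% level, and chance flags about 1 in 20 such groups. Id1 was 3.26 CPM in FGF1 mouse 17 of Day 1, where the next mouse had 5.27 CPM, and that value rests on 4 reads. Id2 was 76.9 CPM in FGF1 mouse 22 of Day 1, with the next at 122 CPM. Tgfb2 was 33.2 CPM in vehicle mouse 28 of Day 1, with the next at 26.1 CPM. On Day 42, Tgfb1 was 2.60 CPM in vehicle mouse 13 (next 1.78 CPM) and Tgfbr2 was 25.5 CPM in FGF1 mouse 11 (next 20.5 CPM).

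The effect of FGF1 differed between days in 5 tests of the difference, on the log2 scale in edgeR. For Tgfb1 it was -2.10 for Day 5 minus Day 1 (adjusted p = 0.000193) and -2.21 for Day 42 minus Day 1 (adjusted p = 4.23e-05). For Id3 it was -1.33 for Day 42 minus Day 5 (adjusted p = 0.0089) and -1.01 for Day 42 minus Day 1 (adjusted p = 0.0116). For Id4 it was 0.57 for Day 5 minus Day 1 (adjusted p = 0.00544). Day and preparation cannot be told apart in these 5 values.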

How the results depend on the processing

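Id3 passed on Day 5 against both vehicle groups, and Id3 passed on Day 1, under every alternative run. Tgfb1 passed on Day 1 under every alternative that kept it. The filter of at least 10 counts in every library removes Tgfb1, Smad6 and Id1 by its construction, which took the counts of members that passed to 2 on Day 1, 1 for Day 5 against diabetic vehicle mice, 1 for Day 5 minus Day 1 and 1 for Day 42 minus Day 1. Without the fold threshold 6 members passed on Day 1. Sample quality weights and merged vehicle groups each gave 2 on Day 5 against non-diabetic vehicle mice, with Smad6 added, and leaving out the 2 deepest FGF1 libraries gave 1 against diabetic vehicle mice, with Smad6 lost. Quantile normalization gave 1 for Day 5 minus Day 1, with Tgfb1 lost. Except as named, the cause was not tested.

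With mice left out in turn (the diabetic vehicle mice were not), the counts ran from 2 to 4 on Day 1, from 1 to 2 for Day 5 against diabetic vehicle mice, from 1 to 2 for Day 5 minus Day 1 (1 without vehicle mouse 28 of Day 1) and from 1 to 4 for Day 42 minus Day 1 (1 without vehicle mouse 16 of Day 42 and 4 without vehicle mouse 28 of Day 1).

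Only log2 values near 0 or of large error that did not pass changed sign. With quantile normalization, Id2 on Day 42 was -0.0226, Tgfb1 on Day 5 against diabetic vehicle mice -0.0742 and Tgfb2 on Day 1 -0.0234. With quality weights, Id4 on Day 42 was -0.10, Smad6 on Day 42 0.18, Tgfb2 on Day 42 -0.10 and Smad6 for Day 42 minus Day 1 0.0095. Tgfbr2 on Day 42 was 0.0131 with DESeq2, 0.0120 with its size factors, 0.0032 with at least 10 counts and 0.0053 with each day alone. With mice left out, values on Day 42 ran from -0.0689 to 0.19 for Id1, from -0.15 to 0.13 for Id2, from -0.38 to 0.0197 for Id3, from -0.0802 to 0.15 for Id4, from -0.0838 to 0.16 for Tgfb2 and from -0.0791 to 0.0478 for Tgfbr2. They ran from -0.0043 to 0.12 for Tgfb1 on Day 5 against diabetic vehicle mice, from -0.11 to 0.0215 for Tgfbr2 between the vehicle groups, from -0.21 to 0.35 for Smad6 for Day 5 minus Day 1 and from -0.24 to 0.0248 for Tgfb1 for Day 42 minus Day 5.

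Other scalings moved the median of all genes by at most 0.06 on the log2 scale. The share of genes that rose among all that passed on Day 1 was 58.8% with TMM and 50.8% with DESeq2 size factors, 50.9% with DESeq2 and 51.2% with quantile normalization, and the share of larger effects for Day 42 minus Day 1 was 40.2% against 50.5%, 50.1% and 50.5%. Quantile normalization alone moved the share that rose on Day 5, from 84.9% to 67.6% against non-diabetic and from 82.5% to 65.8% against diabetic vehicle mice, by over 10 percentage points. No paired analysis was possible because the mice of the groups are separate animals and their numbers only name samples. With 4 vehicle mice on Day 1 a single mouse moves a fold change, and Smad6 and Tgfb1 are limited by depth on Day 5.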
